A study of Mus musculus with 8 samples.

Results

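The genes described here are 42 genes of autophagy and mitophagy, taken with every region that the deposited table of accessible chromatin lists under their names. These were 948 of the 489637 regions and 42 of the 27552 genes in the table. A filter on low signal left 306 of the 948 regions in 40 of the genes, against 124901 regions in all, and Atg2b and Atg3 had no region past it. The assay was ATAC-seq, which reads out open chromatin through the cuts of a transposase, on nuclei isolated from the gastrocnemius, a calf muscle, of mice at 6 months of age. All 8 libraries came from animals of the genotype Cre+:iMSBmal1 fl/fl, which carry a Cre transgene and floxed copies of the clock gene Bmal1. The 4 Vehicle libraries came from animals given vehicle and the 4 iMSBmal1KO libraries from animals given tamoxifen, which induces the muscle knockout, so that the knockout and the exposure to tamoxifen cannot be told apart. The sources used here give neither the promoter that drives Cre, nor the interval between treatment and collection, nor the time of day of collection. They do not say whether the replicates were separate animals, so p-values measure the spread between these samples.

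Autophagy encloses cytoplasm in a double membrane, the autophagosome, and delivers it to the lysosome for breakdown. The ULK1 kinase complex starts the process, a lipid kinase complex around VPS34 and Beclin 1 marks the membrane with PI3P, and 2 conjugation systems attach proteins of the ATG8 family to it. Cargo receptors bind these proteins, mitophagy receptors and the kinase PINK1 select mitochondria, and the transcription factors TFEB and TFE3 drive lysosomal and autophagy genes. In skeletal muscle the pathway removes damaged mitochondria and supplies amino acids during fasting. BMAL1 acts with CLOCK at E-boxes, and the comparison of the groups asks where chromatin differs once muscle BMAL1 is lost.

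Depth ran from 4.31 to 29.5 M read equivalents (M, 1000000), the deposited signal divided by the constant that 1 read was worth in each library. Vehicle replicate 4 was the shallowest library, held the largest mitochondrial share (16.5% of its read equivalents) and correlated with the others at 0.80 to 0.85 over tested regions, where other pairs reached 0.94, so the fitted changes of these genes are also given without it, other than those by position around RefSeq starts, which were fitted with all 8 libraries alone. The summed signal of the targeted gene, listed as Arntl, ran from 1942 to 2688 in Vehicle and from 3023 to 3421 in iMSBmal1KO. That difference did not pass the test over all genes (log2 change 0.46 ± 0.14 SE, adjusted limma p of 0.318), and because the floxed exon is not given in the sources used here, this sum is no check of the labels. Markers of fast fibres fitted the labelled muscle: the summed promoter signal of 9 such genes was 8686 to 14523 in Vehicle and 11059 to 12858 in iMSBmal1KO. The 2 of 4 macrophage markers with a promoter region summed to 3.13 to 7.46 and 5.14 to 12.5, and 4 fibro-adipogenic markers to 386 to 596 and 429 to 600. Satellite-cell markers (3 of 4) summed to 134 to 198 and 138 to 171, and 4 endothelial markers to 80.1 to 109 and 86.6 to 123. Per kilobase of listed region, slow-fibre markers (3 of 4) had 37.6 to 79.7 and 35.4 to 54.9. Liver, a tissue that should be absent, had 24.7 to 58.0 and 25.2 to 61.1 (1 of 4 markers), which overlaps the slow-fibre range. Fast-fibre markers had 682 to 1169 and 894 to 1042. These bulk values do not separate fewer nuclei of a type from less accessibility per nucleus, and the part of other cell types in the values below was not tested.

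The promoters of most of these genes were open in control muscle. Promoter sums add the signal of every region within 1000 bp of an annotated transcription start of the gene, and 37 of the 42 genes had a tested one. Per kilobase of listed region the median over these genes was 482 in Vehicle, against 239 over all 15978 genes with a tested promoter, and 29 of the 37 lay above that median. The level per kilobase ran from 53.3 at Atg7, which encodes the E1-like enzyme of both conjugation systems, to 2468 at Wipi1, a PI3P-binding protein of the forming autophagosome. The strongest region lay within 1000 bp of a start in 34 of the 42 genes. It lay elsewhere in Atg3, Atg4a, Atg7, Lamp1, Lamp2, Pink1, Sqstm1 and Tfeb. Of these, Atg3, Atg4a, Pink1 and Sqstm1 have their start regions listed under a neighbour's name (below), so their strongest start signal is not counted here. At Pink1 the start signal by position averaged 1067 in Vehicle. Its strongest region under its own name averaged 49.8 over the 8 libraries.

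The genes differed in how their signal was spread. Wipi1 had 21 listed regions, and the start region chr11:109611129-109612112 held 92.1% of its summed signal. Uvrag, a partner of Beclin 1 in membrane traffic, had 134 listed regions, of which the start region chr7:99140958-99141718 held 60.2%. Tfeb had 55 listed regions, 37 of them tested, and its strongest was chr17:47748622-47749407, annotated as a 5′ UTR exon 11.4 kb into the gene, with 25.1% of the sum. Further Tfeb regions at chr17:47762548-47763075 and chr17:47759750-47760249 held 10.9% and 10.4%. Atg7 had 138 listed regions, the most of any of these genes, and its strongest lay in Intron 3 at chr6:114814156-114814712, 171 kb from the outermost start, with 13.3% of the sum.

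**Figure D1:**
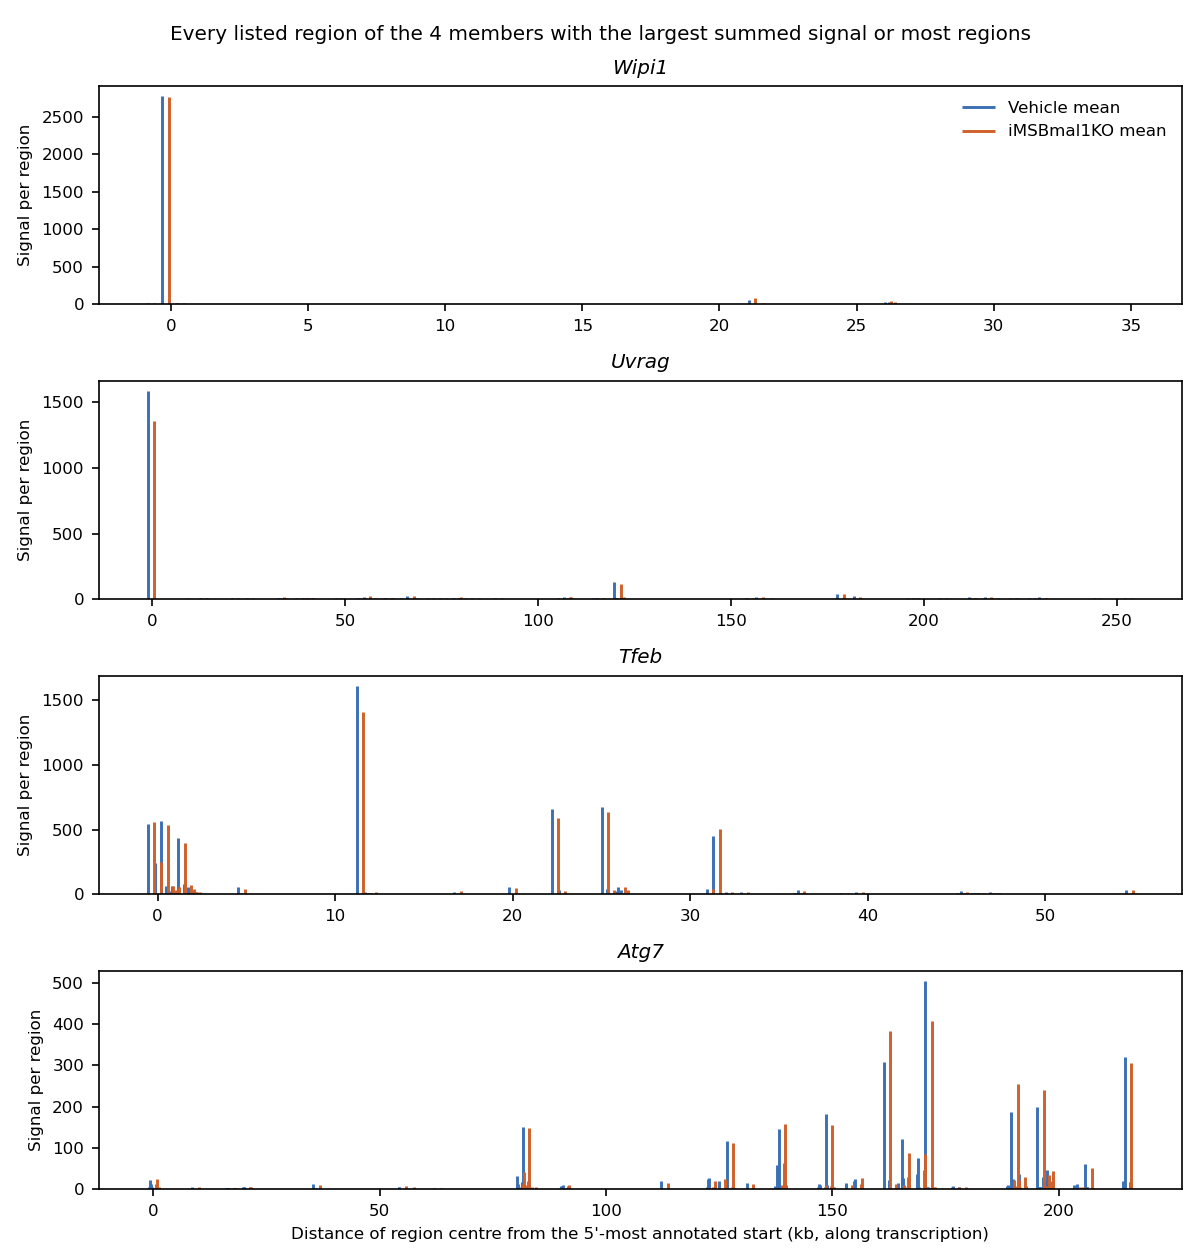
Mean deposited signal of every listed region of Wipi1, Uvrag, Tfeb and Atg7 (y axis, deposited units) against distance of the region centre from the outermost annotated start (x axis, kb). Each vertical line is 1 region, blue for the mean of 4 Vehicle and orange for the mean of 4 iMSBmal1KO libraries, drawn side by side; a single start region dominates Wipi1 (92.1% of its sum), whereas Tfeb and Atg7 hold several strong regions inside the gene.

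For 5 of the genes the start lay under a neighbour's name. Around the start positions that RefSeq gives for GRCm38.p6, 11 of 82 tested regions carried the name of another gene. They lay at 6 of the 34 genes with such a start and a tested region. Listed regions below the filter are not in these counts. Atg2b, which transfers lipid to the growing membrane, shares its start with Gskip, and Atg3, the E2-like enzyme of ATG8 conjugation, with Slc35a5. The tested start regions of Atg4a, Sqstm1 and Pink1 were listed under Psmd10, Mgat4b and Gm27646, and 21.3% of the Gabarapl1 start signal under 1700101I11Rik. Taken by position, the Pink1 start signal was 1278, 1231, 1054 and 704 in Vehicle (replicates 1 to 4 in order, here and below) and 1106, 1319, 1054 and 1219 in iMSBmal1KO. Vehicle replicate 4 was the lowest and the other 7 values were intermixed. At such shared starts the signal cannot be assigned to either gene, and counts under a gene's own name leave it out.

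Sequences are shown for the promoters that hold an E-box beneath a tested region, because BMAL1 and TFEB both bind E-boxes. RefSeq promoter sequences (GRCm38.p6, 250 bases before to 50 after the start) were found for 35 of the 42 genes. The E-box CACGTG, which reads the same on both strands, was present in 7 of the 35 genes (Atg3, Atg5, Atg7, Atg14, Bnip3, Ctsl and Lamp1; 20%) and in 8.09% of the 27025 genes in the reference table. The core TCACGTGA of the CLEAR element, the TFEB site, contains the E-box and was found in Atg3 alone among these genes, and in 1.12% of all genes. Stretches around the E-boxes are given 5′ to 3′ along transcription, with the E-box in capitals.
Lamp1, chr8:13159080-13159160, plus strand: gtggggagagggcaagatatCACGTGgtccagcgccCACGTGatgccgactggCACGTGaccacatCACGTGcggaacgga
Atg3, chr16:45158715-45158783, plus strand: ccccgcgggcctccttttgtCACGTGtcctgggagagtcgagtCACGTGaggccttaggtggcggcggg
Atg5, chr10:44268305-44268338, plus strand: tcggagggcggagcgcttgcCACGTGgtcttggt
Atg14, chr14:47568418-47568447, minus strand: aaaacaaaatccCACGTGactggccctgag
Bnip3, chr7:138909589-138909634, minus strand: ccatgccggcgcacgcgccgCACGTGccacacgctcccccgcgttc
Lamp1, a glycoprotein of the lysosomal membrane, held 4 E-boxes between positions -61 and -10 from its start. The E-boxes of Atg7 and Ctsl lay under no listed region.

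The region over the 4 Lamp1 E-boxes, chr8:13159095-13159157, had a signal of 19.2, 34.9, 30.5 and 0 in Vehicle and 49.7, 54.4, 25 and 30.1 in iMSBmal1KO. The groups overlapped, and Vehicle replicate 4 held no read there. The log2 change was 1.66 ± 1.14 (SE, adjusted limma p of 0.655), and 0.45 without Vehicle replicate 4. The Slc35a5 region over the Atg3 E-boxes had a log2 change of 0.21 ± 0.22 (SE), the Atg5 region 0.22 ± 0.22 (SE), the Atg14 region 0.16 ± 0.20 (SE) and the Bnip3 region -0.09 ± 0.18 (SE). Without Vehicle replicate 4 these were 0.04 (Atg3), -0.002 (Atg5), 0.01 (Atg14) and -0.17 (Bnip3). Over all 1002 tested regions that covered a promoter E-box the median log2 change was 0.21, the same as over the 13598 tested regions that covered any RefSeq promoter window. In the first of these sets 0 regions passed the limma threshold and 7.49% had an unadjusted p under 0.05, against 2 regions and 8.95% in the second.

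The core of the element that REV-ERB and ROR receptors bind, NNAGGTCA on either strand, was present in 5 of the 35 genes (Atg4a, Atg10, Gabarapl2, Nbr1 and Ulk2; 14.3%) and in 18.0% of all genes. N stands for any base, so a match rests on AGGTCA alone, whatever bases precede it. The match lay under a tested start region in Atg10, Gabarapl2, Nbr1 and Ulk2, and is shown for the kinase Ulk2 and the cargo receptor Nbr1 as examples.
Ulk2, chr11:61855309-61855342, minus strand: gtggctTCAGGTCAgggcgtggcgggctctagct
Nbr1, chr11:101552588-101552635, plus strand: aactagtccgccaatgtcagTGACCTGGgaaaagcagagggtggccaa
The regions over these stretches had log2 changes of 0.25 ± 0.21 (SE) for Ulk2 and 0.17 ± 0.18 (SE) for Nbr1, and those over the Atg10 and Gabarapl2 cores 0.25 ± 0.21 (SE) and 0.07 ± 0.20 (SE). Without Vehicle replicate 4 the changes of Ulk2, Nbr1, Atg10 and Gabarapl2 were 0.16, 0.06, 0.08 and -0.02. A match to these letters is a description of the sequence and not evidence of binding.

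Between iMSBmal1KO and Vehicle no change in accessibility at these genes passed the test. Of their 306 tested regions 0 had a limma adjusted p under 0.05, against 0.0881% of all tested regions, and the smallest was 0.339. Of the 40 gene sums, which add all regions of a gene, 0 passed (0.17% of all genes did), with a smallest adjusted limma p of 0.421. Of the 37 promoter sums 0 passed (0.1% of all promoters), with a smallest adjusted limma p of 0.417. Limma-voom, the other tool run, also called 0 in each of the 3 sets. An unadjusted p under 0.05 was found in 22 regions, or 7.19%, against 9.22% of all tested regions. Of these 17 were higher in iMSBmal1KO and 5 lower, where 6.59% of all regions were higher and 2.63% lower. It was also found in 5 gene sums (12.5%, against 10.2% of all genes) and in 7 promoter sums (18.9%, against 10.6% of all promoters). All of these sums were higher in iMSBmal1KO, as were 8.52% of all gene sums and 9.38% of all promoter sums. By position around RefSeq starts 0 of 34 genes passed (0.0937% of all genes so treated), and 5 had an unadjusted p under 0.05, all higher (10.9% of all).

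The groups of 4 did not overlap in 16 of the 306 regions, 12 higher and 4 lower in iMSBmal1KO, a share of 5.23% beside 5.48% of all tested regions (3.62% higher and 1.87% lower). They did not overlap in 2 of 40 gene sums, Rb1cc1 and Lamp2 (5.21% of all genes, 4.04% in the higher direction), and in 1 of 37 promoter sums, Rb1cc1 (4.58% of all promoters, 3.67% in the higher direction). The log2 change was positive in 170 of the 306 regions (55.6%, against 62.0% of all). With median-of-ratios factors it was positive in 133 and with loess scaling in 137. Among gene sums 33 of 40 were positive (82.5%, against 70.7% of all genes), which became 23 and 21 under these scalings, and among promoter sums 30 of 37 (81.1%, against 75.7%), which became 24 and 22. The deposited scaling set the median change of all tested regions at 0.12, and median-of-ratios factors and loess set it at 0.01. Over all gene sums the median went from 0.12 to 0.006 and 0.001, and over all promoter sums from 0.16 to 0.04 and 0.004. The shares of all features printed here and below hold for the deposited scaling, and not for counts under these scalings. Relative to all features of the same kind under the deposited scaling, the median of these genes was -0.05 for regions, 0.04 for gene sums and 0.04 for promoter sums.

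**Figure D2:**
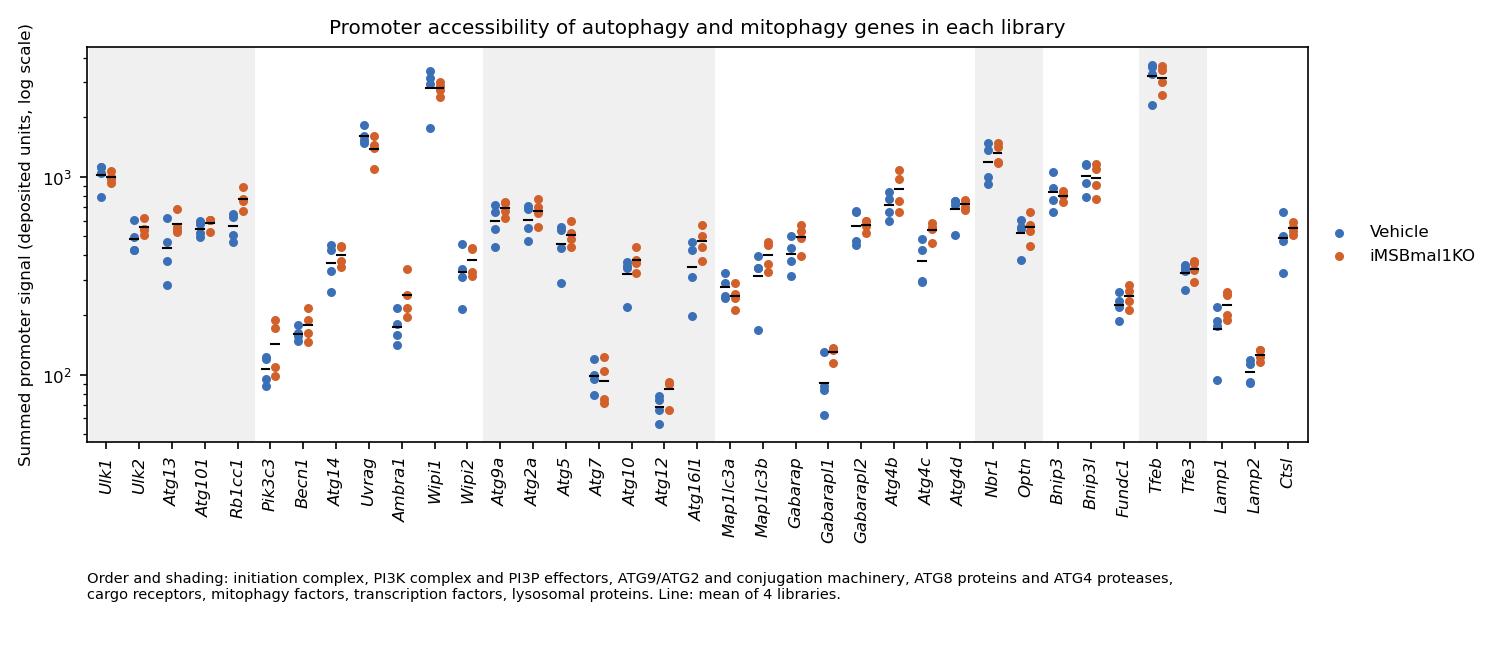
Summed promoter signal (y axis, deposited units, log scale) of the 37 genes with a tested promoter, ordered by role. Points are single libraries, blue for Vehicle and orange for iMSBmal1KO, and lines are means of 4; the groups overlap at every gene but Rb1cc1, and at many genes a single Vehicle point lies below the rest.

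The intervals limit how large a difference these libraries allow. The 95% interval of the change lay within 2-fold in either direction for 39 of the 40 gene sums, with an upper end of 1.02 (log2) at Gabarapl1 as the exception, and for 37 of 37 promoter sums. Over all genes 88.2% of gene sums and 86.3% of promoter sums had intervals as narrow. The median half-width for these genes was 0.35 for gene sums and 0.38 for promoter sums on the log2 scale. Differences smaller than these intervals could not be resolved at this depth and spread. The median coefficient of variation of the gene sums was 17.0% among Vehicle and 11.8% among iMSBmal1KO libraries.

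**Figure D3:**
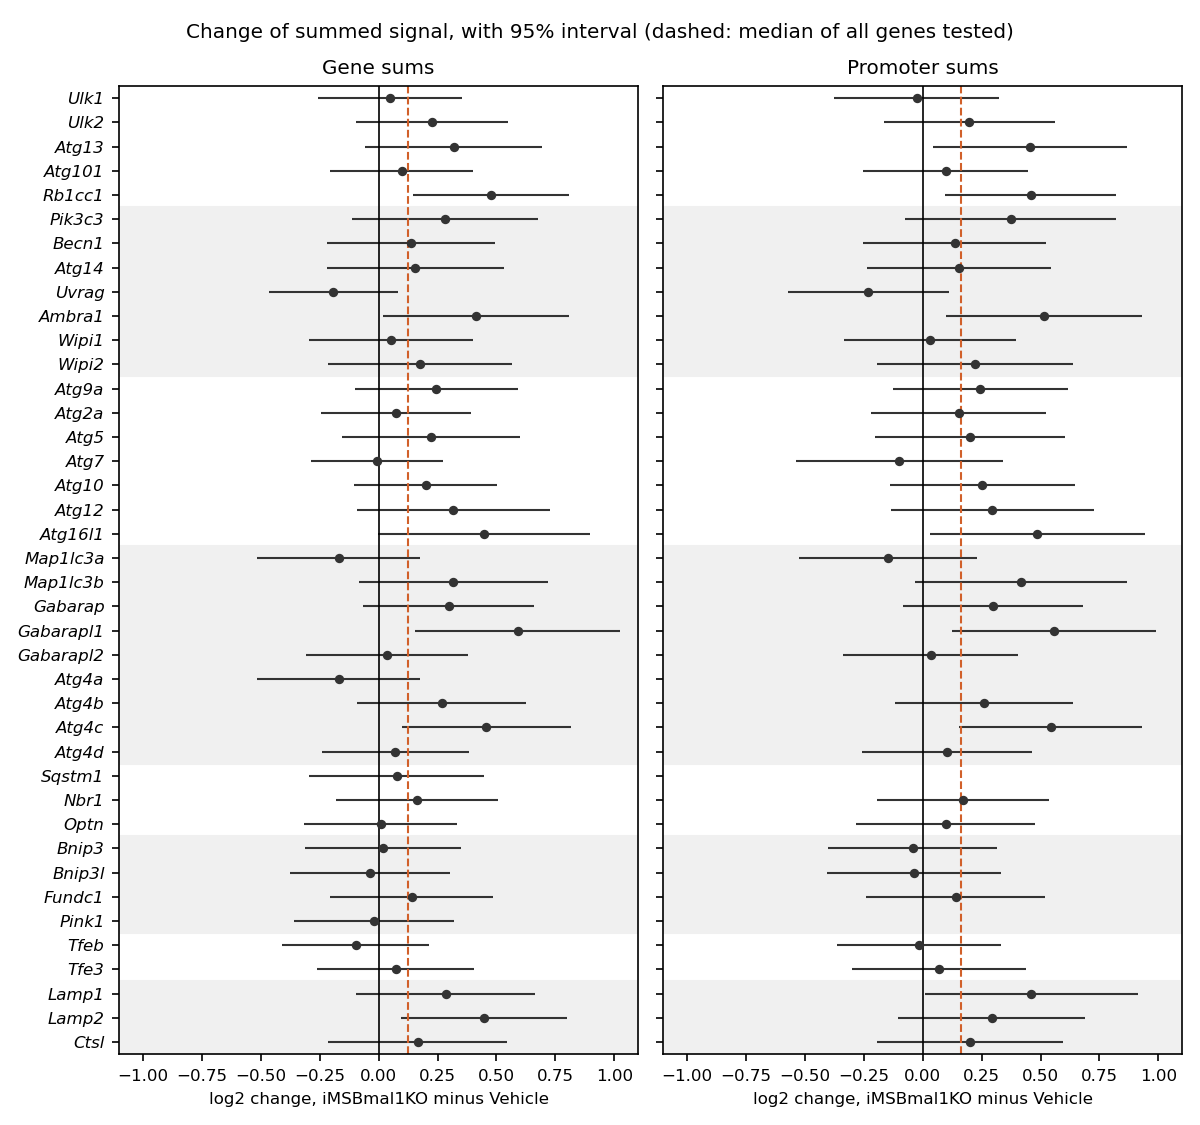
Log2 change of gene sums (left) and promoter sums (right) for the tested genes, ordered by role, with 95% intervals from limma. The dashed line is the median of all genes tested (0.12 and 0.16) and the solid line is 0; 39 of 40 intervals on the left and all 37 on the right stay within 1 on either side.

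The initiation complex held 5 genes, all with positive gene-sum changes and a median of 0.23 (3 of 5 positive with median-of-ratios factors or loess scaling, and 4 without Vehicle replicate 4). Over all genes 70.7% of gene sums were positive, with a median of 0.12. Of its 32 tested regions 5 had an unadjusted p under 0.05, all higher (15.6%, against 6.59% of all tested regions). The median log2 change of the 32 was 0.20, against 0.12 over all tested regions. Rb1cc1 encodes FIP200, the scaffold of the ULK1 complex. Its summed signal was 668, 725, 503 and 550 in Vehicle and 887, 962, 815 and 726 in iMSBmal1KO. Every iMSBmal1KO library lay above every Vehicle library, though the lowest of them (726) exceeded the highest Vehicle value (725) only slightly. Vehicle and iMSBmal1KO averaged 612 ± 103 and 848 ± 101 (SD, n = 4 each). The log2 change was 0.48 ± 0.16 (SE), the smallest unadjusted limma p of the gene sums at 0.00709, with an adjusted p of 0.421. Without Vehicle replicate 4 it was 0.43. The start region chr1:6214252-6214965 carried most of this signal, with 625, 647, 460 and 510 in Vehicle and 759, 873, 742 and 661 in iMSBmal1KO. Those groups were also separate, with a log2 change of 0.44 ± 0.18 (SE, adjusted limma p of 0.504), and 0.40 without Vehicle replicate 4.

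Ulk1, the kinase of the complex, had the largest promoter sum of this role. Its promoter signal was 1118, 1125, 1044 and 791 in Vehicle and 1002, 1066, 932 and 972 in iMSBmal1KO. The iMSBmal1KO values lay inside the Vehicle range, and the log2 change was -0.03 ± 0.17 (SE), and -0.14 without Vehicle replicate 4. The Ulk1 region with the smallest p, Intron 3 at chr5:110808255-110808473, had 124, 145, 101 and 56.3 in Vehicle and 175, 161, 126 and 146 in iMSBmal1KO. There the groups overlapped at 1 library each, with a log2 change of 0.58 ± 0.26 (SE, adjusted limma p of 0.528), and 0.31 without Vehicle replicate 4. The promoter of Atg13, the subunit that ties ULK1 to FIP200, had a log2 change of 0.46 and that of Atg101 0.10. Without Vehicle replicate 4 these were 0.27 (unadjusted p of 0.106, in place of 0.0304) and 0.08.

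Among the 7 genes of the PI3K complex and its PI3P effectors, 5 of 49 tested regions had an unadjusted p under 0.05, all higher. That was 10.2%, against 6.59% of all tested regions, and the median log2 change was 0.08. Of the 49, 22 were at Uvrag. The 7 gene sums had a median of 0.16, against 0.12 over all genes, and 6 were positive (70.7% of all genes were). With median-of-ratios factors or without Vehicle replicate 4 5 were positive, and with loess scaling 4. Ambra1, a Beclin 1-binding regulator, had a promoter sum of 181, 218, 158 and 141 in Vehicle and 343, 253, 194 and 218 in iMSBmal1KO. The groups met between 194 and 218, and the iMSBmal1KO values were the more scattered. The means were 174 ± 33.3 and 252 ± 65.1 (SD, n = 4 each), for a log2 change of 0.51 ± 0.20 (SE, adjusted limma p of 0.44), and 0.42 without Vehicle replicate 4. The annotated 5′ UTR exon region chr2:91749838-91750039 of Ambra1 had 6.40, 29.8, 14.6 and 6.25 in Vehicle and 36.8, 37.6, 25 and 28.9 in iMSBmal1KO. Vehicle replicate 2 lay among the iMSBmal1KO values and the other Vehicle values below them. Its log2 change was 1.37 ± 0.41 (SE, adjusted limma p of 0.349), on 2 to 86 reads a library, and 1.097 without Vehicle replicate 4. By position around RefSeq starts, Ambra1 was the only gene of the 34 whose groups were separate (3.68% of all genes in the same direction), at a log2 change of 0.63 (adjusted limma p of 0.303).

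Wipi1 had the most accessible promoter per kilobase of the genes described. Its promoter sum was 3408, 3152, 2930 and 1763 in Vehicle and 2752, 3026, 2535 and 2880 in iMSBmal1KO. Vehicle replicate 4 was by far the lowest, and the log2 change was 0.03 ± 0.18 (SE) with it and -0.18 without it. The Intron 4 region chr11:109590163-109590345 of Wipi1 had 50.1, 82.2, 52.7 and 31.3 in Vehicle and 83, 99.5, 77.5 and 60.2 in iMSBmal1KO. The groups overlapped, with a log2 change of 0.62 ± 0.28 (SE, adjusted limma p of 0.53), and 0.38 without Vehicle replicate 4. Uvrag had the most negative promoter change of all these genes, -0.23 with all libraries and also -0.23 without Vehicle replicate 4, and its interval included 0. Changes at the promoters of Pik3c3 (VPS34, the lipid kinase), Becn1 (Beclin 1), Atg14 (its partner at the autophagosome) and Wipi2 were 0.37, 0.14, 0.16 and 0.22, none past the test. They were 0.28, 0.14, 0.004 and 0.03 without Vehicle replicate 4.

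Of the 66 tested regions at the genes of ATG9, ATG2 and the conjugation machinery, 4 had an unadjusted p under 0.05 in the higher and 1 in the lower direction. Together these were 7.58%, against 9.22% of all tested regions, and the median log2 change of the 66 was 0.03. Of the 66, 43 were at Atg7, so these region values describe largely a single gene. The 7 gene sums tested had a median of 0.22, against 0.12 over all genes, and 6 were positive (70.7% of all genes were). With median-of-ratios factors or loess scaling 5 were positive, and without Vehicle replicate 4 6 were. Atg16l1 forms the complex with ATG5 and ATG12 that places ATG8 proteins on the membrane. Its promoter sum was 425, 470, 312 and 197 in Vehicle and 501, 573, 375 and 442 in iMSBmal1KO. The groups overlapped and Vehicle replicate 4 was the lowest. The log2 change was 0.49 ± 0.22 (SE, adjusted limma p of 0.465), and 0.24 without that library. Atg9a, the lipid scramblase carried on seed vesicles, had a single listed region, chr1:75191760-75192342, with 722, 667, 546 and 444 in Vehicle and 621, 734, 672 and 749 in iMSBmal1KO. The groups overlapped, with a log2 change of 0.24 ± 0.19 (SE, adjusted limma p of 0.67), and 0.11 without Vehicle replicate 4.

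Atg7 held the smallest unadjusted p of all 306 regions, and this region is named after its values were seen. At chr6:114766398-114766468 in Intron 2 the signal was 30.9, 22.1, 21.0 and 21.9 in Vehicle and 14.1, 2.51, 11.9 and 10.0 in iMSBmal1KO. Every Vehicle value lay above every iMSBmal1KO value, on 3 to 33 reads a library. Its log2 change was -1.40 ± 0.41 (SE, adjusted limma p of 0.339), and -1.44 without Vehicle replicate 4. An Intron 3 region of the same gene, chr6:114832541-114832667, was separate in the other direction, with 13.9, 12.3, 12.1 and 3.13 in Vehicle and 18.4, 20.1, 23.9 and 26.3 in iMSBmal1KO (log2 change 1.18 ± 0.40 SE, adjusted limma p of 0.432, and 0.74 without Vehicle replicate 4). The gene sum of Atg7 had a log2 change of -0.01 and its promoter sum -0.10, and without Vehicle replicate 4 both had -0.09.

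The ATG8 proteins, which coat the autophagosome and bind receptors, and the ATG4 proteases that process them held 52 tested regions, with a median of -0.02. Of these 1 was higher and 2 lower at an unadjusted p under 0.05 (5.77%, against 9.22% of all tested regions). The 9 gene sums had a median of 0.27, against 0.12 over all genes, and 7 were positive (70.7% of all genes were). The 8 tested promoter sums had a median of 0.28, against 0.16 over all promoters, and 7 were positive (75.7% of all promoters were). In both sets 5 were positive with median-of-ratios factors, with loess scaling or without Vehicle replicate 4. Gabarapl1, an ATG8 protein, had the largest gene-sum change of all these genes. Its sum was 85.3, 136, 96.0 and 62.5 in Vehicle and 126, 140, 137 and 149 in iMSBmal1KO. The iMSBmal1KO values were close together, and Vehicle replicate 2 lay among them. The means were 94.8 ± 30.5 and 138 ± 9.69 (SD, n = 4 each), for a log2 change of 0.59 ± 0.21 (SE, adjusted limma p of 0.443), and 0.41 without Vehicle replicate 4. The start region chr6:129533299-129533636 had 40.5, 51.4, 53.4 and 34.4 in Vehicle and 55.6, 62.7, 81.1 and 53.9 in iMSBmal1KO, which did not overlap (log2 change 0.49 ± 0.25 SE, adjusted limma p of 0.56, and 0.37 without Vehicle replicate 4).

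Atg4c had the smallest unadjusted p of the 37 promoter sums. Its promoter signal was 426, 487, 294 and 297 in Vehicle and 461, 560, 546 and 581 in iMSBmal1KO. Only Vehicle replicate 2 reached into the iMSBmal1KO range. The means were 376 ± 96.2 and 537 ± 52.7 (SD, n = 4 each), for a log2 change of 0.54 ± 0.19 (SE, unadjusted p of 0.00761, adjusted limma p of 0.417), and 0.44 without Vehicle replicate 4. Without Vehicle replicate 2 the promoters of Atg4c (0.68, adjusted limma p of 0.0433) and Gabarapl1 (0.74, adjusted limma p of 0.0459) passed the threshold, and 2.40% of all promoters then did. Atg4b, which had the largest promoter sum of this role, had a start region at chr1:93754622-93755076 with 625, 677, 510 and 507 in Vehicle and 908, 849, 550 and 603 in iMSBmal1KO. The upper and lower pair of iMSBmal1KO values lay on either side of the highest Vehicle value, and the log2 change was 0.31 ± 0.20 (SE, adjusted limma p of 0.62), and 0.24 without Vehicle replicate 4. The promoter changes of the LC3 genes Map1lc3a and Map1lc3b were -0.15 and 0.42, and those of Gabarap and Gabarapl2 0.30 and 0.03. The same promoters had -0.12, 0.14, 0.18 and -0.04 without Vehicle replicate 4.

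The cargo receptors, which tether ubiquitinated material to ATG8 proteins, held 25 tested regions, 20 of them at Optn, with a median of 0.09. Of the 25, 0 had an unadjusted p under 0.05, against 9.22% of all tested regions. This count and median describe mainly a single gene. Nbr1 is a receptor for protein aggregates and midbody remnants. Its start region chr11:101551933-101553094, which covers the match to NNAGGTCA printed above, had 1467, 1351, 979 and 904 in Vehicle and 1165, 1482, 1176 and 1395 in iMSBmal1KO. The groups were intermixed. Its promoter sum had a log2 change of 0.17 ± 0.18 (SE, adjusted limma p of 0.688), and 0.05 without Vehicle replicate 4. Sqstm1, which encodes the receptor p62, had a gene-sum change of 0.08, and its start region under the name of Mgat4b 0.19, while Optn (optineurin, a mitophagy receptor) had a promoter change of 0.10. The Sqstm1 gene sum had 0.03 and the Optn promoter -0.04 without Vehicle replicate 4.

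Of the 21 tested regions at the mitophagy factors 0 had an unadjusted p under 0.05, against 9.22% of all tested regions, and the median was 0.00. A positive change was found in 11 (52.4%, against 62.0% of all tested regions), in 7 with median-of-ratios factors and in 8 with loess scaling. Bnip3 and Bnip3l are receptors in the outer mitochondrial membrane that bind ATG8 proteins directly. The Bnip3 promoter sum was 877, 1052, 759 and 666 in Vehicle and 813, 810, 848 and 744 in iMSBmal1KO. All 4 iMSBmal1KO values lay inside the Vehicle range, with means of 839 ± 167 and 804 ± 43.5 (SD, n = 4 each). The log2 change was -0.04 ± 0.18 (SE), with a 95% interval from -0.40 to 0.32, and -0.15 without Vehicle replicate 4. The Bnip3 Intron 1 region chr7:138907046-138907113 had 35.5, 30.8, 30.5 and 34.4 in Vehicle and 31.2, 19.2, 22.7 and 22.6 in iMSBmal1KO, with iMSBmal1KO replicate 1 alone inside the Vehicle range (log2 change -0.46 ± 0.28 SE, adjusted limma p of 0.6, and -0.43 without Vehicle replicate 4).

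Bnip3l, also called Nix, had a promoter sum of 1161, 1140, 933 and 791 in Vehicle and 1089, 1165, 771 and 906 in iMSBmal1KO. The groups covered nearly the same range, and the log2 change was -0.04 ± 0.18 (SE, 95% interval -0.41 to 0.33), and -0.15 without Vehicle replicate 4. Its Intron 1 region chr14:67007684-67007813 had 10.7, 15.4, 17.2 and 18.8 in Vehicle and 8.99, 8.36, 11.9 and 6.27 in iMSBmal1KO, which overlapped at 1 library each (log2 change -0.74 ± 0.37 SE, adjusted limma p of 0.551, and -0.65 without Vehicle replicate 4). Fundc1, the hypoxia-responsive receptor, had 235, 261, 220 and 188 in Vehicle and 264, 283, 212 and 235 in iMSBmal1KO over its promoter. The groups were intermixed, with a log2 change of 0.14 ± 0.19 (SE). Its start region chrX:17572102-17572521 had a log2 change of 0.10. The Fundc1 promoter had 0.05 and the region 0.003 without Vehicle replicate 4. Pink1, the kinase that marks depolarised mitochondria for removal, had a gene sum of 179, 172, 189 and 153 in Vehicle and 176, 196, 154 and 159 in iMSBmal1KO under its own name. These were also intermixed, with a log2 change of -0.02 ± 0.16 (SE, 95% interval -0.36 to 0.32), and its start signal by position had 0.17 ± 0.18 (SE). The Pink1 Intron 2 region chr4:138323922-138324030 had a log2 change of 0.41 ± 0.30 (SE, adjusted limma p of 0.653). Without Vehicle replicate 4 the Pink1 gene sum had -0.07 and this region 0.17.

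The transcription factors held 40 tested regions, 37 of them at Tfeb, so that this set is mostly a single gene. Their median log2 change was -0.11. Of the 40, 14 were positive (35%, against 62.0% of all tested regions), 7 with median-of-ratios factors and 8 with loess scaling. An unadjusted p under 0.05 was found in 2, both lower and both at Tfeb (5%, against 2.63% of all tested regions). The Tfeb gene sum was 7071, 6074, 7104 and 4656 in Vehicle and 4750, 6290, 5664 and 6400 in iMSBmal1KO. The groups overlapped, and the lowest Vehicle value was that of replicate 4. The means were 6226 ± 1151 and 5776 ± 757 (SD, n = 4 each), for a log2 change of -0.10 ± 0.15 (SE, adjusted limma p of 0.805), and -0.23 without Vehicle replicate 4. The 5′ UTR exon region chr17:47739553-47739608 of Tfeb had 25.6, 30.8, 40.7 and 25 in Vehicle and 7.70, 16.7, 16.7 and 20.1 in iMSBmal1KO. Every Vehicle value lay above every iMSBmal1KO value, with a log2 change of -0.999 ± 0.334 (SE, adjusted limma p of 0.432), and -1.08 without Vehicle replicate 4. The strongest Tfeb region, chr17:47748622-47749407, had means of 1608 ± 340 and 1405 ± 214 (SD, n = 4 each) and a log2 change of -0.18 ± 0.18 (SE), and -0.32 without that library.

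Tfe3, the related factor on the X chromosome, had a promoter sum of 335, 360, 346 and 269 in Vehicle and 367, 373, 293 and 339 in iMSBmal1KO. The groups were intermixed, with a log2 change of 0.07 ± 0.18 (SE, 95% interval -0.30 to 0.44). Its region with the smallest p, a transcript-end region at chrX:7765961-7766158, had a log2 change of 0.16 ± 0.34 (SE). The Tfe3 promoter had -0.02 and this region 0.14 without Vehicle replicate 4.

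The lysosomal proteins held 21 tested regions, with a median of 0.20. Of these 18 had a positive change (85.7%, against 62.0% of all tested regions), 16 with median-of-ratios factors or loess scaling and 12 without Vehicle replicate 4. An unadjusted p under 0.05 was found in 2, both higher and both at Lamp2 (9.52%, against 6.59% of all tested regions). Lamp2, whose isoforms serve fusion of autophagosomes with lysosomes and chaperone-mediated autophagy, had a gene sum of 395, 332, 257 and 247 in Vehicle and 402, 411, 422 and 413 in iMSBmal1KO. All iMSBmal1KO values lay above all Vehicle values and within a narrow band, while Vehicle replicate 1 came close to them. The means were 308 ± 69.7 and 412 ± 8.32 (SD, n = 4 each), for a log2 change of 0.45 ± 0.17 (SE, adjusted limma p of 0.454), and 0.35 without Vehicle replicate 4. Its Intron 6 region chrX:38428900-38429169 had 125, 68.8, 68.6 and 46.9 in Vehicle and 120, 118, 116 and 124 in iMSBmal1KO, where Vehicle replicate 1 was the highest of all (log2 change 0.71 ± 0.26 SE, adjusted limma p of 0.472, and 0.50 without Vehicle replicate 4). The Lamp2 promoter sum had a log2 change of 0.29 ± 0.19 (SE), and 0.36 without that library.

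The Lamp1 promoter sum was 188, 177, 221 and 93.8 in Vehicle and 262, 253, 199 and 188 in iMSBmal1KO. The groups overlapped, and Vehicle replicate 4 had the lowest value. Its log2 change was 0.46 ± 0.22 (SE, adjusted limma p of 0.465), and 0.20 without that library. The Lamp1 start region chr8:13159173-13159282, just downstream of the E-boxes printed above, had 67.2, 68.8, 76.3 and 28.1 in Vehicle and 124, 120, 65.6 and 61.5 in iMSBmal1KO (log2 change 0.64 ± 0.32 SE, adjusted limma p of 0.556, and 0.31 without Vehicle replicate 4). Ctsl, which encodes the lysosomal protease cathepsin L, had 492, 658, 451 and 316 in Vehicle and 494, 521, 544 and 576 in iMSBmal1KO at its start region chr13:64370001-64370702. The highest and the lowest value were both Vehicle, and the log2 change was 0.20 ± 0.21 (SE, adjusted limma p of 0.753), and 0.02 without Vehicle replicate 4.

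By annotated section, the 98 tested regions at transcription starts had a median log2 change of 0.13, against 0.17 over all regions of that section. The 36 regions in 5′ UTR exons, most of them at Tfeb, had -0.11 against 0.08. The 26 in Intron 1 had 0.17 against 0.08, and the 92 in later introns had 0.04 against 0.11. The 29 regions at transcript ends had -0.04 against 0.06 and the 19 annotated to 3′ UTR exons had -0.08 against 0.10. Most of the latter were at Uvrag, 55.7 to 231 kb from its outermost start and spread along the gene. The medians for 5′ and 3′ UTR exons therefore describe mainly a single gene each. In none of these sections did a region of these genes pass the limma threshold. An unadjusted p under 0.05 was found in 8 of 98 start regions (8.16%, against 8.39% of all regions of that section), 3 of 36 in 5′ UTR exons (8.33%, against 8.74%), 1 of 26 in Intron 1 (3.85%, against 8.20%) and 8 of 92 in later introns (8.70%, against 9.62%). It was also found in 2 of 29 at transcript ends (6.90%, against 9.43%) and in 0 of 19 annotated to 3′ UTR exons (against 9.55%).

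**Figure D4:**
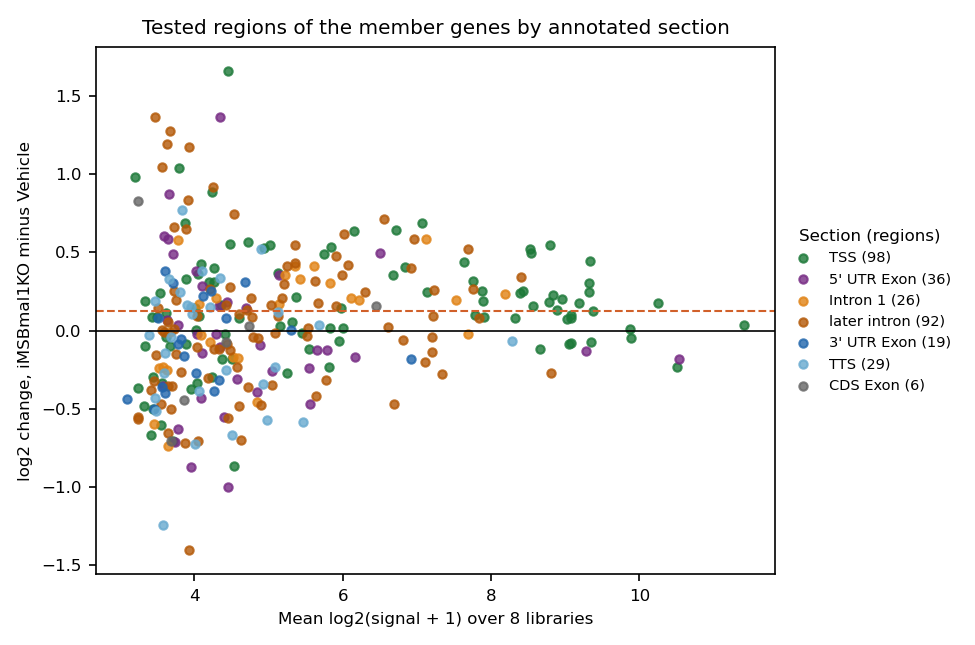
Log2 change (y axis, iMSBmal1KO minus Vehicle) of the 306 tested regions against their mean log2(signal + 1) over 8 libraries (x axis), coloured by annotated section. The dashed line is the median of all tested regions (0.12); changes beyond 1 on either side occur at regions of low signal, and the strongest regions, mostly transcription starts, lie close to 0.

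Vehicle replicate 4 moved with the direction of these values. It was the lowest of the 8 libraries in 26 of the 37 promoter sums, and in 54.3% of all promoters. Relative to the mean of the other 3 Vehicle libraries it stood at a median of 0.724 at these promoters and 0.763 at all promoters. Without it, the median log2 change of the 37 promoter sums was 0.05, against 0.07 over all promoters, and 25 were positive. An unadjusted p under 0.05 was then found in 3 of the 37 in place of 7, and in 6.13% of all promoters. The same comparison for gene sums gave a median of 0.05 against 0.06 over all genes, with 25 of 40 positive. Of the 40, 5 had an unadjusted p under 0.05, as did 7.12% of all genes. These were not the same 5 as with all libraries. Ambra1 was no longer among them (unadjusted limma p of 0.110). Tfeb was, in the lower direction (log2 change -0.23, unadjusted limma p of 0.0488). Among the promoter sums that kept most of their change were those of Rb1cc1 (0.46 with and 0.41 without that library) and Ambra1 (0.51 and 0.42), whereas Atg16l1 went from 0.49 to 0.24 and Lamp1 from 0.46 to 0.20.

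**Figure D5:**
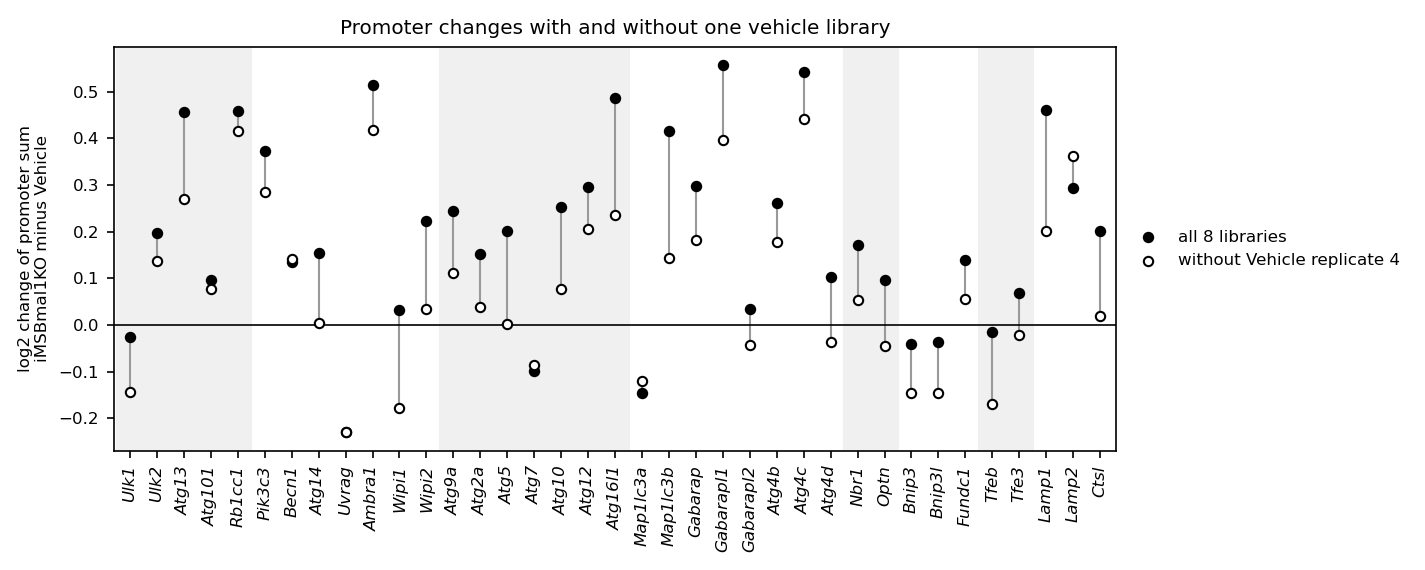
Log2 change of each promoter sum with all 8 libraries (filled points) and without Vehicle replicate 4 (open points), ordered by role. The value without that library is lower at 32 of the 37 genes, and the median moves from 0.20 to 0.05.

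A further list of 49 symbols of the pathway gave 47 genes with 352 tested regions, among them the tethering and fusion machinery and lysosomal hydrolases. Of these regions 0 passed the limma threshold (0.0881% of all tested regions did). An unadjusted p under 0.05 was found in 32 (22 higher, 10 lower), or 9.09%, against 9.22% of all tested regions. Of the 47 gene sums 0 passed (0.17% of all genes did), and the smallest limma adjusted p was 0.0998. Of the same sums 4 had an unadjusted p under 0.05 (8.51%, against 10.2% of all genes). Of the 43 promoter sums 0 passed (0.1% of all promoters did). An unadjusted p under 0.05 was found in 3, 2 higher and 1 lower (6.98%, against 10.6% of all promoters). The median log2 change of these gene sums was 0.15, beside 0.16 for the genes above and 0.12 over all genes.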

How the data were processed

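ATAC-seq was compared between 4 Vehicle and 4 iMSBmal1KO libraries. The authors deposited a table of signal per region and library. The submitters' processing notes name Partek, Bowtie2, MACS2 and DESeq2 and the builds mm10 and GRCm39, without roles. The table's transcript starts lay a median of 12 bp from RefSeq GRCm38.p6 starts, and coordinates are as listed, counted from 1. Between 98.3% and 99.8% of non-zero values in a library were whole multiples of 1 step within 0.02 reads, so dividing by the step gave read equivalents, but complete recovery of reads is not claimed and no count test was run. The median tested region held 6 reads in the shallowest and 51 in the deepest library.

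Limma-trend with robust moderation (limma 3.58.1, R 4.3.3) was fitted to log2(signal + 1) with group as the only term, over all regions, all gene sums and all promoter sums, with Benjamini-Hochberg adjustment over each and a threshold of 0.05. Changes are on this scale, where the added 1 shrinks those of weak regions. A library without reads can also enlarge a change there. At the Lamp1 E-box region, where Vehicle replicate 4 held no read, the change was 1.66 with that library and 0.45 without it. Regions needed 0.762 read equivalents per 1000000 in 4 libraries and 15 in total. Roles and lists were chosen with earlier results of these data known, as were the members, and support nothing by themselves. Named were, for each role, the genes with the smallest p or the largest promoter, plus mitophagy receptors, Pink1, Tfeb and Tfe3, each with its region of smallest p. The Atg7, Uvrag and Atg13 values, the remaining single values and the Rb1cc1 and Lamp1 comparisons without a library were chosen after values were seen. Alternatives covered pseudocounts, filters, scalings, limma-voom, a replicate block, autosomes, promoter windows, each library left out and, chosen after seeing the data, promoters by position. The fits were tested on simulated data. Python 3.11.15, pandas 2.3.3 and matplotlib 3.10.9 were used for tables and figures.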

Additional observations from a re-analysis of the deposited data

Results flagged for a closer look

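Among the group values of these genes, 112 groups of 4 libraries were examined for a library far from the other 3, and 1 was found where chance gives about 5.6. In the Lamp1 gene sum, Vehicle replicate 4 had 228, while the other 3 Vehicle libraries had 371 to 395. The distance to its nearest neighbour was 0.854 of the whole range of the group, past Dixon's 95% limit for 4 values. This library was the lowest at most promoters of the series, and the part of its depth or mitochondrial share in the Lamp1 value was not tested. Without it the change of the Lamp1 gene sum was 0.10 in place of 0.29 on the log2 scale.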

How the results depend on the processing

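The counts of regions (0 of 306) and gene sums (0 of 40) past the limma threshold were 0 in all 18 and all 19 other settings. For promoter sums the count was 0 in 20 of 21 other settings and ran from 0 to 2 as each library was left out, with 2 (Atg4c and Gabarapl1) without Vehicle replicate 2. The labels do not say whether same replicate numbers pair samples. Deviations of same-numbered libraries correlated at -0.06, 0.14, 0.02 and 0.02, and those of differently numbered libraries at -0.19 to 0.25. So few values cannot settle whether the samples were paired. With the replicate block 0 regions, 0 gene sums and 0 promoter sums of these genes were called (smallest limma adjusted p of 0.240, 0.122 and 0.0953), while calls over all gene sums went from 33 to 130 and over all promoter sums from 16 to 154. Calls over all regions (110) were 342 with loess and with limma-voom, 279 with median-of-ratios factors, 195 without a filter, 281 without Vehicle replicate 4 and as few as 32 without Vehicle replicate 1.

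Of 1065 values of 56 named results, 1011 kept their direction and call, 2 became calls and 52 reversed. With median-of-ratios factors the gene sums of Ulk1, Wipi1, Tfe3 and Bnip3 had -0.0695, -0.0667, -0.0451 and -0.0985, the promoters of Wipi1 and Tfe3 -0.0851 and -0.0482 and the Fundc1 region -0.0158. With total reads the gene sums of Ulk1, Wipi1 and Bnip3 had -0.00434, -0.00152 and -0.0333, and the Wipi1 promoter -0.0200. With loess the gene sums of Ulk1, Fundc1, Tfe3 and Bnip3 had -0.0244, -0.0310, -0.10 and -0.0751, the promoters of Fundc1, Tfeb and Tfe3 -0.0896, 0.0102 and -0.15 and the Fundc1 region -0.0519. Within 2500 bp the promoters of Ulk1 and Bnip3 had 0.0488 and 0.0184, within 500 bp that of Tfeb 0.00125, by position that of Ulk1 0.00927, and the Pink1 gene sum over tested regions alone 0.21. As each library was left out, gene sums ran from -0.0602 to 0.11 for Ulk1, -0.15 to 0.15 for Wipi1, -0.14 to 0.065 for Bnip3l, -0.017 to 0.15 for Tfe3, -0.011 to 0.33 for Ctsl, -0.094 to 0.15 for Bnip3 and -0.083 to 0.032 for Pink1. Promoter sums ran from -0.14 to 0.026 for Ulk1, -0.18 to 0.14 for Wipi1, -0.15 to 0.075 for Bnip3l, -0.17 to 0.078 for Tfeb, -0.022 to 0.14 for Tfe3 and -0.15 to 0.075 for Bnip3. The cause of these reversals was not tested. Some named regions rest on few reads, 3 to 33 a library at the Atg7 Intron 2 region and 2 to 86 at the Ambra1 5′ UTR exon region.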
